A study of Mus musculus with 16 samples.

Results

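Growth hormone acts on muscle largely through insulin-like growth factors (IGFs), and 10 genes of this axis are described here in injured mouse hamstring muscle. They are the feedback inhibitors Cish and Socs2, the growth hormone receptor Ghr, the ligands Igf1 and Igf2, the receptor Igf1r and the binding proteins Igfbp3, Igfbp4, Igfbp5 and Igfbp7. Members were all probes whose symbol in the deposited non-normalized table equals one of these names. This gave 14 of the 25697 probes and 10 of the 18097 gene symbols on an Illumina expression BeadChip, where each probe is a 50-base oligonucleotide carried on many beads. Of the 14 probes, 13 passed the detection filter (detection p under 0.05 on at least 3 arrays), and every gene kept at least 1 probe.

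RNA was taken from whole hamstring muscle of female mice 2 days after surgery. The SCI groups had a spinal cord injury and the Sham groups sham surgery. In both, the muscle was injected with cardiotoxin (CDTX), a venom toxin that destroys muscle fibres, or with saline, so the 4 groups have surgery and an injection in common. The series design names SCI+CDTX as the one condition in which bone forms in the muscle (neurogenic heterotopic ossification). The labels name no strain or age, and give 4 arrays per group. They do not say whether replicates came from separate animals, so p-values measure the spread between these samples. SCI+CDTX replicate 2, which the labels exclude, was left out of the fit, leaving 15 arrays and 3 in SCI+CDTX.

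As background, growth hormone binds its receptor on the cell surface and activates the kinase JAK2 and the transcription factor STAT5. STAT5 induces Igf1, and it also induces Cish and Socs2, whose products dampen the same receptor. In muscle, IGF1 and IGF2 act on satellite cells and fibres through the IGF1 receptor, and the binding proteins hold IGFs in the extracellular space, where they can inhibit or prolong IGF action. IGFBP7 binds IGFs only weakly. After muscle injury, macrophages and other non-muscle cells are known sources of IGF1.

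Mean raw intensity was 230.48 to 277.04 on the 4 Sham+Saline arrays and 319.92 to 373.11 on the other 12, and 11114 to 13694 probes were detected per array. The label hamstring muscle was matched by all 10 fibre markers, whose summed normalised intensity was 133660 to 149480 over the 15 arrays. Both SCI groups lay on one slide and both Sham groups on the other, per the labels, so in any SCI against Sham comparison slide and surgery cannot be told apart. The CDTX comparisons lie within a slide. On both slides the CDTX arrays held positions A to D and the saline arrays E to H, per the labels. Injection and array position therefore cannot be told apart either. A second pattern set the Sham+CDTX arrays apart. For each of 2779 other genes the difference between its 2 brightest probes was taken, and the leading component of these differences (33.06% of their variance) was called the probe-difference score. It was 18.28 to 20.57 on the Sham+CDTX arrays, 14.8 on SCI+CDTX 2 and -14.03 to -3.525 on the other 11 arrays. Values from a fit of all 16 arrays with this score as a covariate are given beside each member or gene difference named here whose call they end or turn, and as counts for the gene lists. In that fit the Sham+CDTX estimates rest largely on SCI+CDTX 2, the only other array with a high score, and what the score reflects was not tested. Markers of other cells also moved with the groups. All 10 macrophage markers were called higher with CDTX in both surgeries (9 in sham mice with the score), with sums of 14180 to 21206 in SCI+CDTX and 18754 to 22116 in Sham+CDTX, against 1022.1 to 4670.2 in SCI+Saline and 1284.4 to 2331.9 in Sham+Saline. Over all tested probes 20.4% and 23.1% were called higher with CDTX in SCI and sham mice. In this bulk tissue, fewer cells of a type and less RNA per cell cannot be told apart.

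Cish, the first member, encodes a SH2-domain protein that binds the activated receptor. A STAT5 dimer recognises the palindrome TTCNNNGAA, so the start of Cish is shown with matches to it in capitals. The stretch runs from 100 bases before to 25 bases from the RefSeq start, at chr9:107296559-107296683 on the plus strand of GRCm38.p6:
Cish: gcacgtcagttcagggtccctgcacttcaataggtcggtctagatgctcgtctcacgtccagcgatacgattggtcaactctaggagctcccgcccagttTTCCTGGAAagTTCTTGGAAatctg
The 2 matches begin at positions 1 and 12 counted from the start. RefSeq promoter windows of 300 bases (250 before and 50 from the start) were found for 9 of the 10 genes, all but Socs2, and these made 13 windows. The window of Cish was the 1 of 13 with a match. Over all 32851 windows in the table, 8.3% held at least 1 match and 0.457% at least 2. One scan covers both strands, since the pattern is its own reverse complement, and no other motif was searched. A match describes these letters only.

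Cish (ILMN_2718330, chromosome 9, band 9qF1) was lowest in sham-operated muscle given CDTX. On the log2 scale of normalised intensity, the 4 Sham+CDTX arrays read 5.83, 5.38, 5.68 and 5.40, and the 4 Sham+Saline arrays 7.14, 8.93, 9.71 and 9.14. The groups did not overlap, and the saline arrays spread over more than 2 log2 units while the CDTX arrays lay close together. The difference was -3.16 log2 (standard error 0.50), an 8.94-fold lower level (limma, adjusted p = 4.2e-05). With the probe-difference score added it was -2.01 (adjusted p = 0.278) and was not called.

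In SCI mice the Cish arrays overlapped. SCI+CDTX read 6.71, 6.20 and 8.03, and the excluded replicate read 6.75 when all 16 arrays were normalised together, while SCI+Saline read 8.50, 6.90, 9.49 and 8.16. The CDTX difference of -1.28 (standard error 0.55, 95% interval -2.43 to -0.14) did not pass (adjusted p = 0.066). With SCI+CDTX 2 included it was -1.35 and did (adjusted p = 0.047). The interaction, the CDTX effect in SCI mice minus that in sham mice, was 1.88 (standard error 0.74, adjusted p = 0.075). Of the processing alternatives, 3 of 12 called the CDTX difference in SCI mice and 1 of 10 the interaction (0.99 to 1.96).

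Ordered by mean, Cish stood at 8.73 ± 1.11 in Sham+Saline, 8.26 ± 1.07 in SCI+Saline, 6.98 ± 0.94 in SCI+CDTX and 5.57 ± 0.22 in Sham+CDTX (SD, n = 4, 4, 3 and 4). No pair of neighbours in this order passed the test in the fit of 15 arrays. SCI+Saline minus Sham+Saline was -0.47 (adjusted p = 0.537), and SCI+CDTX minus Sham+CDTX was 1.41 (adjusted p = 0.059), although the arrays of the last 2 groups did not overlap. This last difference was called in 4 of 12 processing alternatives (0.62 to 1.95). SCI+CDTX was below Sham+Saline by a called -1.75 (adjusted p = 0.013), which was lost without SCI+CDTX 3 (-1.37) in leave-one-out fits, under median scaling (-1.06) and with the score (-1.39); 7 of 12 processing alternatives called it.

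Socs2, the related inhibitor that also tags the growth hormone receptor for degradation, was lower after SCI, and no CDTX difference of it was called. Its probe (ILMN_2628178, chromosome 10, band 10qC2) read 6.98, 6.72, 7.27 and 6.62 in SCI+Saline and 8.94, 8.57, 9.16 and 7.55 in Sham+Saline. All SCI arrays lay below all Sham arrays. The difference was -1.66 (standard error 0.27), 3.16-fold lower (adjusted p = 0.000148). With the score it was -1.75 and remained called.

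In CDTX muscle Socs2 read 7.15, 7.25 and 7.15 after SCI and 8.13, 7.97, 8.84 and 8.66 after sham surgery, without overlap. The difference of -1.22 (standard error 0.29) was called (adjusted p = 0.0039). SCI+CDTX 2 read 8.28, above the lower 2 Sham+CDTX arrays. The called difference became -0.95 with that array, and -0.27 with the score, where it was not called (adjusted p = 0.882). CDTX itself moved Socs2 by 0.28 in SCI mice (95% interval -0.33 to 0.90, adjusted p = 0.472) and by -0.15 in sham mice (-0.72 to 0.41, adjusted p = 0.667). The authors' deposited table has means of 153.8 in SCI+CDTX and 86.7 in SCI+Saline, with a difference p of 0.00214. Whether that p was corrected for multiple testing is not stated. The order was Sham+Saline (8.56 ± 0.71), Sham+CDTX (8.40 ± 0.42), SCI+CDTX (7.18 ± 0.06) and SCI+Saline (6.90 ± 0.29), and of its neighbours Sham+CDTX and SCI+CDTX differed beyond their spread.

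**Figure D1:**
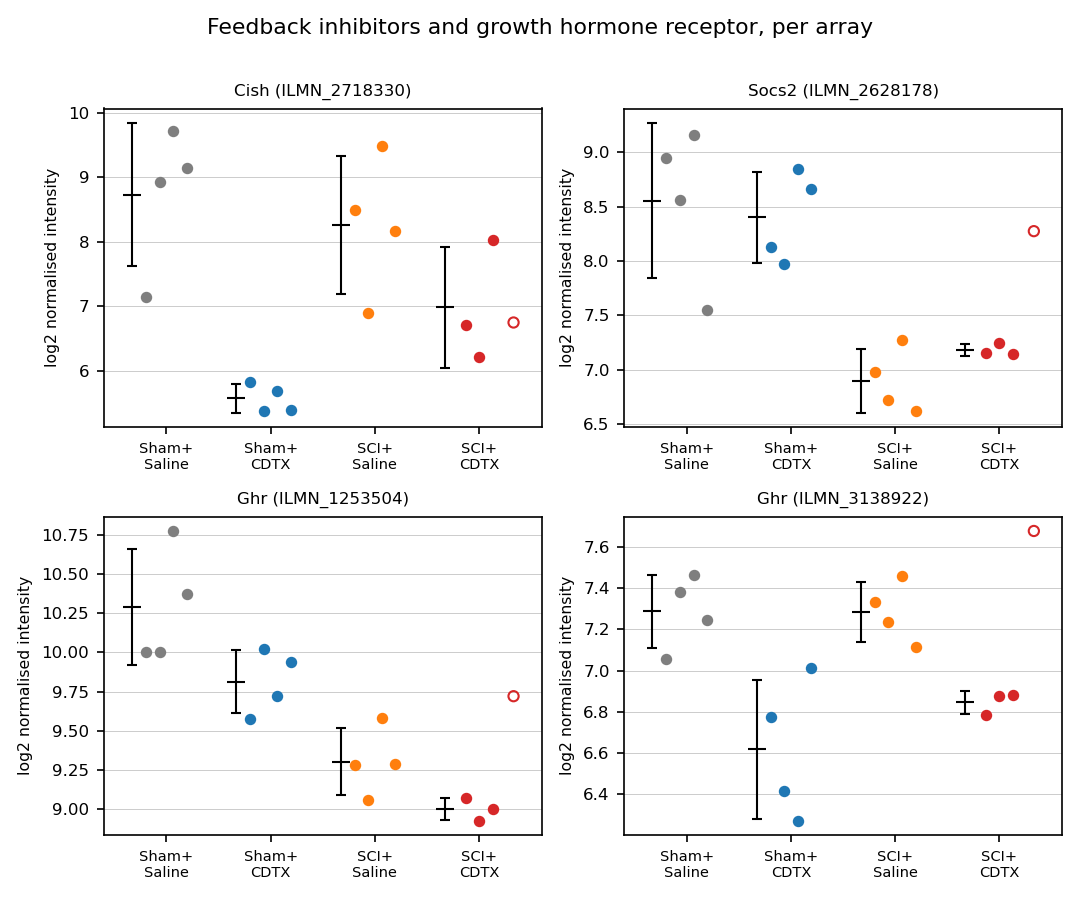
Log2 normalised intensity of Cish, Socs2 and the 2 Ghr probes on each array, by group. Filled points are the 15 arrays of the fit, the open point is the excluded SCI+CDTX 2 from the joint normalisation of 16 arrays, and the bar to the left of each group is the mean ± SD of the filled points; Cish is lowest in Sham+CDTX, while Socs2 and Ghr ILMN_1253504 are lower on the filled SCI points than on the Sham points, apart from 1 SCI+Saline value of 9.58 for Ghr that is level with the lowest Sham+CDTX value.

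The 2 probes of Ghr gave different patterns. ILMN_1253504 (chromosome 15, band 15qA1) starts at base 4050 of its transcript, and ILMN_3138922 at base 628 of another. Which protein forms each probe reads was not examined. ILMN_3138922 is shown because it lies in a coding part of its transcript:
Ghr ILMN_3138922: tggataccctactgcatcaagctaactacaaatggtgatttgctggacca
ILMN_1253504 read 9.28, 9.05, 9.58 and 9.29 in SCI+Saline against 10.00, 10.00, 10.78 and 10.38 in Sham+Saline. The groups were apart, and the difference was -0.99 (standard error 0.17, adjusted p = 0.000279; -1.06 with the score, called). In CDTX muscle it was -0.81 (adjusted p = 0.0027), with the 3 SCI+CDTX arrays between 8.93 and 9.07 and Sham+CDTX at 9.58, 10.02, 9.72 and 9.94. SCI+CDTX 2 read 9.72, within the Sham+CDTX range, and with the score the difference was -0.10 and not called.

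ILMN_3138922 read 7.33, 7.23, 7.46 and 7.11 in SCI+Saline, 7.06, 7.38, 7.46 and 7.25 in Sham+Saline, and 6.77, 6.41, 6.27 and 7.01 in Sham+CDTX. The saline groups covered the same range, and the CDTX arrays lay below it. No SCI difference was called, at -0.00 in saline muscle (95% interval -0.33 to 0.33) and 0.23 in CDTX muscle (-0.13 to 0.59). Under median scaling, in which arrays are only brought to a common median, the first became 0.44 and was called higher. That scaling put the median difference of all probes at 0.17 there, at 0.32 for CDTX in sham mice and at -0.24 for the interaction. The probe differed with CDTX, by -0.67 in sham mice (adjusted p = 0.0017) and -0.44 in SCI mice (adjusted p = 0.045). Under median scaling these were 0.15 and -0.12, neither called, and with SCI+CDTX 2 (at 7.68, above the other SCI+CDTX arrays at 6.78, 6.88 and 6.88) the second was -0.24 and not called. The CDTX call in SCI mice was also lost in 8 of 15 leave-one-out fits, and it held in 4 of 12 processing alternatives. With the score the CDTX difference in sham mice was -1.53 and called, and that in SCI mice -0.48 and not called. In sham mice the sign of the CDTX difference changed with the scaling. For ILMN_1253504, CDTX gave -0.47 in sham mice (adjusted p = 0.029), which was -0.03 under median scaling and was lost on leaving out Sham+CDTX 1 or 3, or Sham+Saline 3 or 4; it held in 8 of 11 processing alternatives. In SCI mice its difference of -0.30 was not called. The difference between the probes was not tested.

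Of the ligands, Igf1 was higher with CDTX in SCI mice on both of its probes. Both probes lie on chromosome 10 (band 10qC1). One starts at base 286 of its transcript in the coding part, across the end of the mature peptide, and is shown because it reads the protein-coding message:
Igf1 ILMN_1225565: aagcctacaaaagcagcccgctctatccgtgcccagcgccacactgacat
The other, ILMN_2647594, starts at base 1269 of another transcript. In SCI mice ILMN_1225565 read 7.59, 8.39 and 7.77 with CDTX against 7.36, 7.56, 6.93 and 7.14 with saline. The groups did not overlap, although SCI+CDTX 1 was only just above SCI+Saline 2. The difference was 0.67 (standard error 0.20, 1.59-fold, adjusted p = 0.012). It was lost without SCI+CDTX 3 (0.43) and with SCI+CDTX 2, which read 6.88 (0.40, adjusted p = 0.224).

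ILMN_2647594 read 5.59, 5.98 and 5.63 in SCI+CDTX against 5.08, 4.78, 4.77 and 5.01 in SCI+Saline. On the SCI+Saline arrays it was near the detection limit, with raw intensity of 109.8 to 116.2 and detection p of 0.00627 to 0.0451. The difference was 0.82 (standard error 0.17, 1.77-fold, adjusted p = 0.00085), and it remained called with SCI+CDTX 2, which read 4.86 (0.61), and with the score (0.91). In sham mice the CDTX differences were 0.46 (adjusted p = 0.048) for ILMN_1225565 and 0.31 (adjusted p = 0.117) for ILMN_2647594. The first was lost in 8 of 15 leave-one-out fits and held in 5 of 11 processing alternatives (0.32 to 1.59). With the score both were larger and called, at 1.59 and 1.38. No SCI difference of either probe was called, the values lying between -0.29 and 0.23, and the interactions of 0.20 and 0.51 were not called. The macrophage marker sums given above moved with the injection in the same direction; their part in the Igf1 difference was not tested.

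Igf2 (ILMN_2597769, chromosome 7, band 7qF5), the fetal ligand that rises in regenerating muscle, was brightest in muscle with neither injury. It read 12.28, 12.06, 11.81 and 12.07 in Sham+Saline and 10.19, 9.75, 11.02 and 11.36 in SCI+Saline. The SCI+Saline arrays were all lower and spread over more than 1 log2 unit. The difference was -1.48 (standard error 0.26, 2.78-fold lower, adjusted p = 0.000341), and it was called in all 11 processing alternatives (-1.48 to -1.10) and in all 15 leave-one-out fits (-1.73 to -1.19). Endothelial markers moved alongside: by limma 9 of 10 were called lower in this comparison and 0 higher (1 and 0 under median scaling, 8 and 0 with the score), with sums of 2775 to 3415.3 in SCI+Saline and 4826.4 to 5305.9 in Sham+Saline. Over all tested probes 14.6% were called lower. In the fit of 15 arrays 5 of 10 fibroblast and fibroadipogenic progenitor markers and 4 of 7 mural (vessel wall) markers were also lower, 0 higher. Of 10 macrophage markers 3 were higher and 0 lower. The part of these cells in the Igf2 difference was not tested.

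In sham mice Igf2 was lower in CDTX muscle, at 11.63, 11.34, 11.10 and 10.99 (-0.79, adjusted p = 0.018), whereas in SCI mice the CDTX arrays, at 11.07, 10.89 and 11.44, overlapped the saline arrays (0.55, adjusted p = 0.129). The interaction of 1.34 was called (standard error 0.39, adjusted p = 0.017). With the score the sham difference turned to 1.62, called higher, the SCI difference in CDTX muscle went from -0.13 to -1.98, called lower, and the interaction turned to -0.73, not called. The CDTX difference in SCI mice was then 0.89 and called. The sham call was also lost without Sham+CDTX 4 or Sham+Saline 1, with all 16 arrays, under median scaling and without the detection filter. The interaction was lost without SCI+CDTX 4, without the detection filter, with all 16 arrays (1.00, SCI+CDTX 2 at 9.81) and under median scaling (0.91).

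Igf1r (ILMN_1239663, chromosome 7, band 7qD1), the receptor through which both ligands signal, was near the detection limit. It was detected on 15 of 16 arrays, and its means lay between 4.77 and 5.14. None of the 7 contrasts was called by limma. The nearest was SCI in saline muscle at 0.37 (95% interval 0.02 to 0.71, adjusted p = 0.104).

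**Figure D2:**
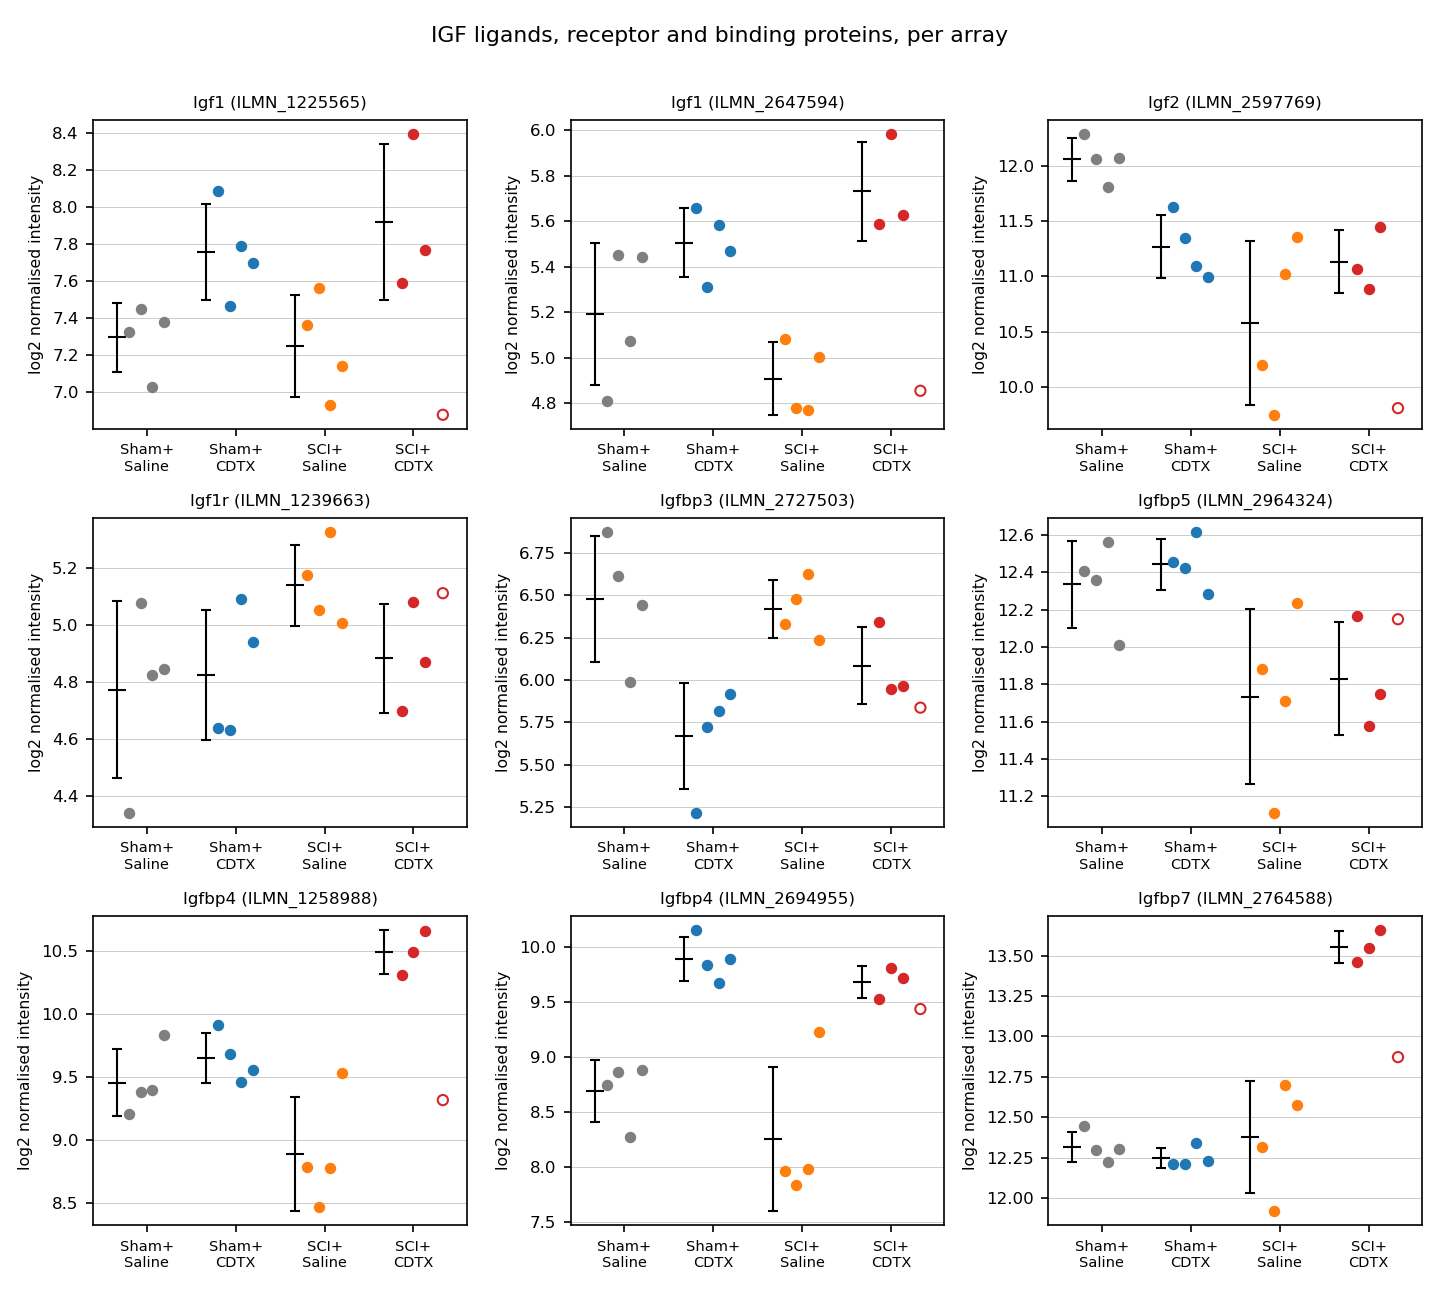
Log2 normalised intensity of the IGF ligands, receptor and binding proteins on each array, by group, with filled, open and bar symbols for fitted arrays, the excluded SCI+CDTX 2 and mean ± SD. The 3 filled SCI+CDTX points of Igfbp4 ILMN_1258988 and Igfbp7 lie above every other array, 2 of those of Igfbp4 ILMN_2694955 lie among the Sham+CDTX points and 1 below them, and the open point is below the filled ones for Igf1, Igf2, Igfbp4 and Igfbp7.

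Igfbp4, a binding protein that inhibits IGF action until a protease cleaves it, had the largest CDTX difference among the members in SCI mice. ILMN_1258988 (chromosome 11, band 11qD) read 10.31, 10.49 and 10.66 in SCI+CDTX and 8.79, 8.47, 8.78 and 9.53 in SCI+Saline. ILMN_2694955 read 9.53, 9.81 and 9.72 against 7.97, 7.84, 7.98 and 9.23, with SCI+Saline 4 the highest saline array on both probes. The differences were 1.60 (standard error 0.21, 3.03-fold, adjusted p = 1.2e-05) and 1.43 (standard error 0.26, 2.70-fold, adjusted p = 0.000216). Both remained called with SCI+CDTX 2, at 1.29 and 1.36, and with the score, at 1.74 and 1.51. Fibroblast and fibroadipogenic progenitor markers were called higher for 7 of 10 genes and lower for 0 by limma in the same comparison (6 and 1 with the score), with sums of 13434 to 16878 (SCI+CDTX), 8823.1 to 14262 (SCI+Saline), 21980 to 24963 (Sham+CDTX) and 9013.2 to 17679 (Sham+Saline). Over all tested probes 20.4% were called higher and 22.5% lower there. The part of these cells in the Igfbp4 difference was not tested.

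In sham mice the call differed between the 2 Igfbp4 probes, which start at bases 1921 and 1627 of 2 versions of the same transcript. The difference between the probes was not tested. ILMN_1258988 read 9.92, 9.69, 9.46 and 9.56 with CDTX and 9.21, 9.38, 9.40 and 9.83 with saline, overlapping, a difference of 0.20 (adjusted p = 0.427). ILMN_2694955 read 10.16, 9.84, 9.68 and 9.90 with CDTX and 8.75, 8.87, 8.27 and 8.88 with saline, all CDTX arrays being higher, a difference of 1.20 (standard error 0.24, adjusted p = 0.000369). The interaction was accordingly called for ILMN_1258988 (1.40, standard error 0.29, adjusted p = 0.0017) and not for ILMN_2694955 (0.23, 95% interval -0.50 to 0.97). With the score in the fit the sham differences were 1.77 and 1.75, both called, and the interactions -0.03 and -0.23, neither called. With all 16 arrays the interaction of ILMN_1258988 was 1.09 and not called, with the probe at 9.32 on SCI+CDTX 2, and under median scaling it was 0.85, also not called, with that probe's sham difference at 0.74 and called.

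The SCI calls on Igfbp4 also differed between the probes. ILMN_1258988 was higher after SCI in CDTX muscle (0.83, adjusted p = 0.0058) and lower in saline muscle (-0.56, adjusted p = 0.036), and ILMN_2694955 was called in neither muscle (-0.21 and -0.44). The 0.83 became 0.53, not called, with all 16 arrays and -0.45 with the score. The -0.56 was lost without any of SCI+Saline 1, 2 or 3 or Sham+Saline 2, 3 or 4, and also with SCI+CDTX 2 added, under median scaling (-0.12) and with the score (-0.42); it held in 4 of 11 processing alternatives.

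Igfbp7, which encodes a secreted protein of vessel walls and matrix, was highest in SCI+CDTX. ILMN_2764588 (chromosome 5, band 5qC3.3) read 13.46, 13.54 and 13.66 there. It read 12.32, 11.92, 12.70 and 12.58 in SCI+Saline, 12.21, 12.21, 12.34 and 12.23 in Sham+CDTX and 12.44, 12.30, 12.22 and 12.30 in Sham+Saline. No array of another group reached the lowest SCI+CDTX array. SCI+CDTX exceeded SCI+Saline by 1.18 (standard error 0.16, 2.26-fold, adjusted p = 1.7e-05), Sham+CDTX by 1.31 (standard error 0.16, 2.47-fold, adjusted p = 1.1e-05) and Sham+Saline by 1.24 (adjusted p = 4.7e-06).

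In sham mice CDTX moved Igfbp7 by -0.07 (95% interval -0.38 to 0.25), and the interaction was 1.25 (standard error 0.22, adjusted p = 0.00051). SCI+CDTX 2 read 12.87, between the other SCI+CDTX arrays and the rest, and with it the interaction was 1.06 and still called. Under median scaling it was 0.62 and called, and the SCI difference in saline muscle, 0.06 otherwise, was then 0.49 and called. With the score the sham CDTX difference was 1.15 and called, the SCI difference in CDTX muscle 0.36 and the interaction 0.19, neither called, while the CDTX difference in SCI mice stayed at 1.34 and called. Endothelial markers had sums of 3910.9 to 4782.1 in SCI+CDTX against 2775 to 3415.3 in SCI+Saline and 2553.4 to 2974 in Sham+CDTX, with 4 of 10 called higher in each of these comparisons and 0 and 1 lower. Over all tested probes 42.9% and 29.8% were called in either direction, so the first count is near its background. With the score 4 markers were still called higher against SCI+Saline, and 0 were called in either direction against Sham+CDTX. The sums in Sham+Saline were 4826.4 to 5305.9. Their part in the Igfbp7 differences was not tested. The second Igfbp7 probe, ILMN_2634286, starts slightly downstream in the same transcript (base 1027 against 946) and was detected on 0 of 16 arrays, so it was not above background.

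Igfbp3, the main carrier of IGFs in blood, was dim. ILMN_2727503 (chromosome 11, band 11qA1) read 5.22, 5.72, 5.82 and 5.92 in Sham+CDTX and 6.87, 6.61, 5.99 and 6.44 in Sham+Saline, a called difference of -0.81 (standard error 0.19, adjusted p = 0.0015). It was -0.03 under median scaling and -0.23 with the score, neither called. No other effect of the injection or the surgery was called for it. Igfbp5 (ILMN_2964324, chromosome 1, band 1qC3), the binding protein that muscle precursors make as they differentiate, had no called CDTX difference (0.10 in SCI mice, 95% interval -0.36 to 0.55, and 0.11 in sham mice, -0.31 to 0.53). It was lower after SCI by -0.60 in saline muscle (adjusted p = 0.029) and -0.61 in CDTX muscle (adjusted p = 0.038), but the SCI+Saline arrays ran from 11.11 to 12.23 and overlapped the Sham+Saline range of 12.01 to 12.56. Each call was lost in 5 of 15 leave-one-out fits, and they held in 6 of 11 and 8 of 12 processing alternatives. The first was -0.15 under median scaling, and the second -0.41 with the score and -0.53 with SCI+CDTX 2, none of them called. Of 6 precursor markers, Pax7 and Myf5 were detected on no array and Cdh15 was not on the array. The other 3, Myod1, Myog and Chrna1, were called higher with SCI in saline muscle, as were 14.8% of all tested probes. Their sums were 2870.9 to 3627.1 in SCI+Saline and 503.79 to 571.07 in Sham+Saline, while Igfbp5 was lower in SCI+Saline. Whether these 3 genes read precursor cells here was not tested, so their sums are not a measure of precursor number. The part of precursor cells in the Igfbp5 difference was not tested.

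**Figure D3:**
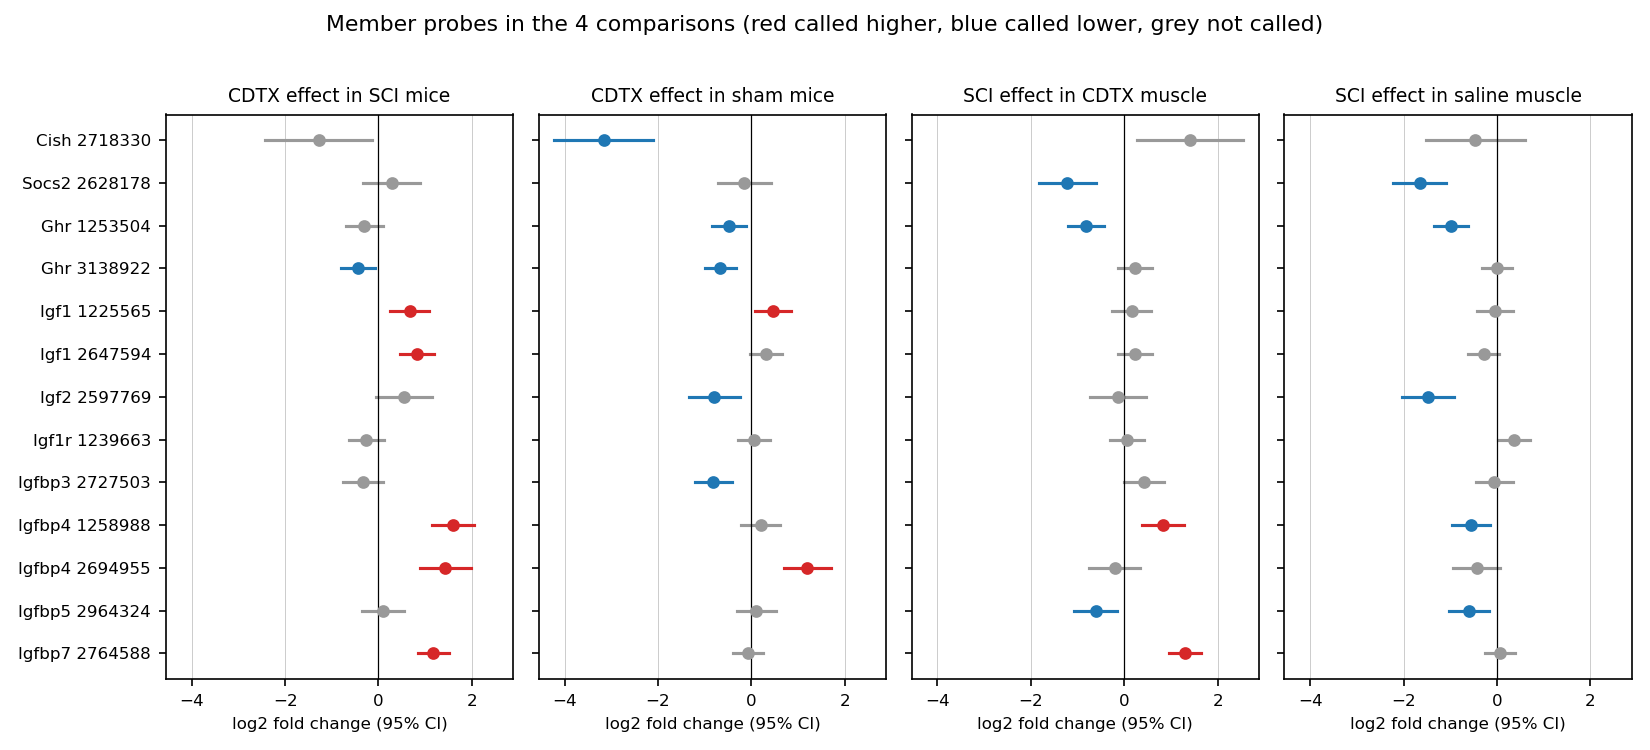
Log2 fold change with 95% interval of each of the 13 tested probes (number after the gene) for CDTX in SCI mice, CDTX in sham mice, SCI in CDTX muscle and SCI in saline muscle. Igfbp4 and Igfbp7 lie farthest right with CDTX in SCI mice, Cish farthest left with CDTX in sham mice at -3.16, and no probe is called higher with SCI in saline muscle.

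Over the members, 5 of 13 probes were called higher with CDTX in SCI mice and 1 lower. The background was 20.4% of all 14763 tested probes higher and 22.5% lower, 42.9% in either direction, and under median scaling the members split 5 and 0. With CDTX in sham mice 2 were higher and 5 lower, against backgrounds of 23.1% and 25.8% (48.9% in either direction), and under median scaling 4 were higher and 1 lower. With SCI in CDTX muscle 2 were higher and 3 lower, against 14.9% each (29.8% in either direction). With SCI in saline muscle 0 were higher and 5 lower by limma, with 1 higher at an unadjusted p under 0.05, against 14.8% and 14.6% (29.5% in either direction). Under median scaling this split was 2 and 3. Between SCI+CDTX and Sham+Saline 5 were higher and 5 lower, against 23.0% and 23.6% (46.5% in either direction), and 5 and 2 under median scaling. Between SCI+Saline and Sham+CDTX 3 were higher and 8 lower, against 24.7% and 23.2% (47.8% in either direction). For the interaction 3 were higher and 0 lower by limma, 5 and 0 at an unadjusted p under 0.05, against 12.0% and 11.6% (23.6% in either direction). The members' counts of 6, 7, 5 and 5 of 13 in the first 4 comparisons lie near their backgrounds in either direction. The 5 lower with SCI in saline muscle lie above their 14.6%. For SCI+CDTX minus Sham+Saline and SCI+Saline minus Sham+CDTX, the counts of 10 and 11 of 13 lie above their backgrounds. The members were chosen with earlier results of these data known. The members' median difference with SCI in saline muscle was -0.44, beside -0.01 over all probes, and with CDTX in SCI mice it was 0.28 beside -0.05. The comparisons share groups and are not independent.

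**Figure D4:**
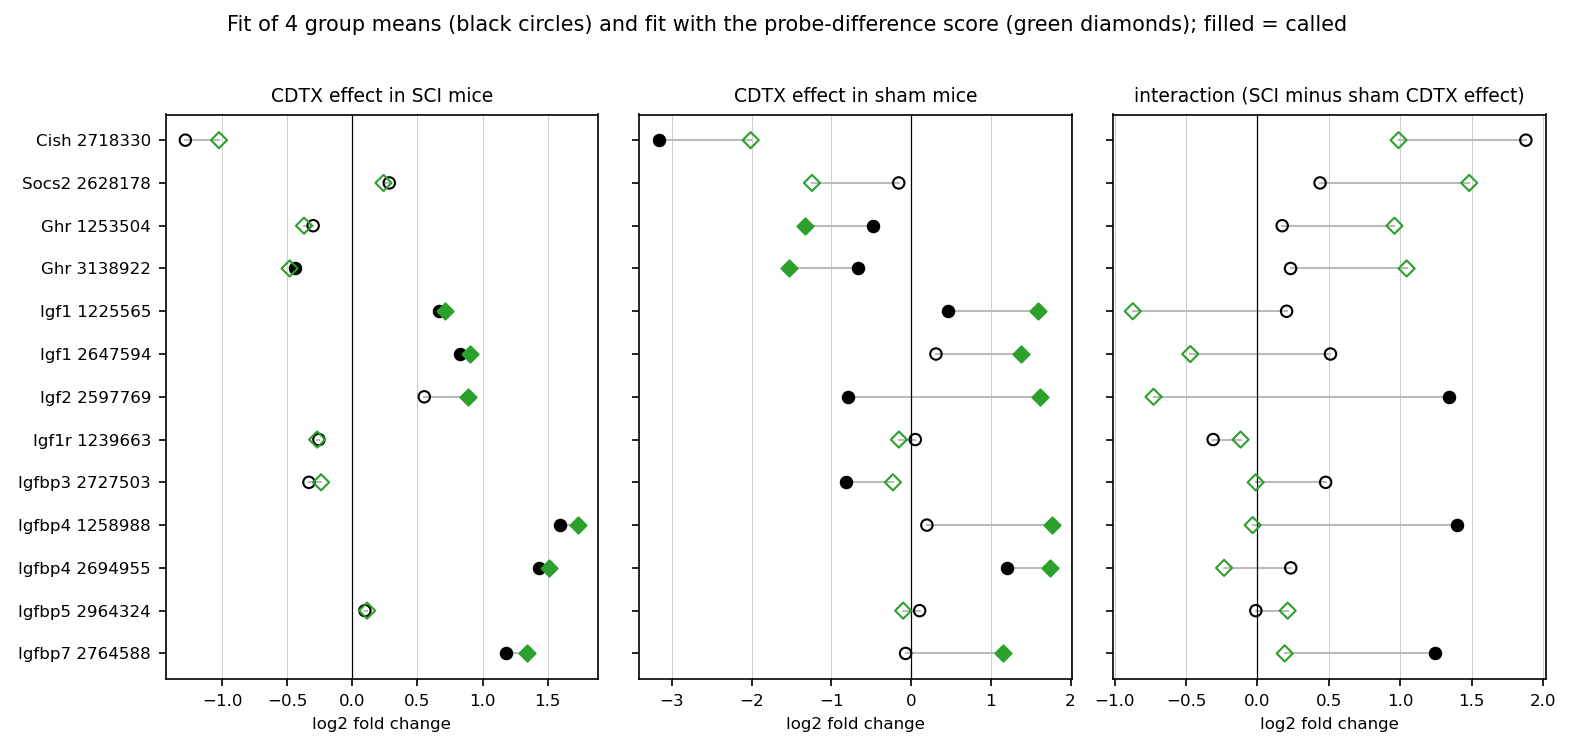
Log2 fold change of each probe in the fit of 4 group means on 15 arrays (black circles) and in the fit of 16 arrays that has the probe-difference score as a covariate (green diamonds), for the CDTX effect in each surgery and the interaction; filled symbols are called. The 2 fits lie close together for CDTX in SCI mice, while in sham mice Igf2 moves from -0.79 to 1.62 and Cish from -3.16 to -2.01, and all 3 called interactions are lost.

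Other genes of the pathway were read from 5 lists, 1 probe per gene. In growth hormone receptor signalling (12 of 14 genes kept), 5 genes were higher and 0 lower with CDTX in SCI mice by limma, 2 and 0 in sham mice, 2 and 0 with SCI in CDTX muscle (0 and 0 with the score), and 1 and 1 with SCI in saline muscle (3 and 0 under median scaling, 2 and 1 with the score). With CDTX, 20.4% and 23.1% of all probes were called higher in SCI and sham mice, and 42.9% and 48.9% in either direction, so the list's calls in either direction were near that background in SCI mice and below it in sham mice. With SCI, 29.8% of all probes were called in either direction in CDTX muscle and 29.5% in saline muscle, and the list's calls were below both. The list's median difference with CDTX in SCI mice was 0.28, beside -0.04 over all genes tested. The phosphatase Ptpn6, which blood cells express, rose by 2.72 (adjusted p = 6.6e-06) and 2.91 with CDTX in the 2 surgeries. Socs3, the inhibitor induced by cytokines of the IL-6 family, stood at 8.66 ± 0.49 in SCI+CDTX (SD, n = 3), while the other groups had means of 7.10 ± 0.77 (SCI+Saline), 6.75 ± 0.25 (Sham+CDTX) and 7.19 ± 0.42 (Sham+Saline), n = 4 each. It rose with CDTX in SCI mice by 1.56 (adjusted p = 0.00084) and with SCI in CDTX muscle by 1.91, and its interaction was 2.01 (adjusted p = 0.0031). With the score these were 1.71, called, and 0.62 and 0.58, not called. Jak2 was lower with SCI in saline muscle (-0.71, adjusted p = 0.0035; -0.29 under median scaling, not called) and Stat5a higher (0.54, adjusted p = 0.046, not called with all 16 arrays). Ptpn1, which dephosphorylates JAK2, rose with SCI in CDTX muscle by 1.80, or -0.10 and not called with the score.

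Among 8 other STAT5 target genes, all kept and including Socs3, 3 were higher and 0 lower with CDTX in SCI mice, and 3 and 1 in sham mice (2 and 0 with the score). With SCI the counts were 2 and 1 in CDTX muscle (0 and 0 with the score) and 1 and 1 in saline muscle (0 and 1 with the score). These lie near the backgrounds of 42.9%, 48.9%, 29.8% and 29.5% in either direction. The median with CDTX in SCI mice was 0.31. Ccnd1, a cell cycle driver, rose by 2.72 and 1.74, and Osm, an inflammatory cytokine, rose by 1.73 in SCI mice. Igfals, the serum partner of IGF complexes, fell by 1.88 with CDTX in sham mice (adjusted p = 1.7e-05), or -0.19 and not called with the score. It also fell by 1.24 with SCI in saline muscle. In sham mice, where Cish was called lower with CDTX, Igfals was also called lower and 3 genes of this list were called higher. The calls of Cish and Igfals were both lost with the score. Macrophage markers rose in the same CDTX comparisons, and their part in these differences was not tested.

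Of the IGF carriers, proteases and clearance receptors, 6 of 11 genes were kept. With CDTX in SCI mice 2 were higher and 0 lower, in sham mice 1 and 3 (3 and 1 under median scaling, 1 and 0 with the score), with SCI in CDTX muscle 1 and 0 (0 and 0 with the score), and with SCI in saline muscle 0 and 3. The backgrounds in either direction were 42.9%, 48.9%, 29.8% and 29.5% in that order, against which 6 genes are few. Lrp1, a scavenging receptor, rose by 2.21 with CDTX in SCI mice (adjusted p = 2.0e-06) and 0.68 in sham mice, the latter not called with all 16 arrays, and Igf2r, which clears IGF2, by 0.59 in SCI mice. With SCI in saline muscle Stc2, an inhibitor of the protease that cleaves IGFBP4, fell by 1.05 (adjusted p = 0.00034), where the list's median was -0.70 beside -0.02 over all genes tested.

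Downstream, in IGF and insulin receptor signalling, 18 of 21 genes were kept. With CDTX 2 were higher and 7 lower in SCI mice and 2 and 6 in sham mice, which became 4 and 7, and 8 and 2, under median scaling and 3 and 6, and 0 and 3, with the score. With SCI the counts were 2 and 3 in CDTX muscle (1 and 0 with the score) and 4 and 3 in saline muscle (6 and 2 under median scaling). The backgrounds in either direction were 42.9% and 48.9% with CDTX and 29.8% and 29.5% with SCI. The list's medians lay between -0.26 and 0.09 in these comparisons. Eif4ebp1, the translation inhibitor that mTOR switches off, rose with SCI in both muscles, by 1.84 and 1.94 (adjusted p = 7.6e-07 and 8.6e-08), and Akt2, a kinase of insulin signalling, by 1.55 in saline muscle. Pdpk1, the kinase that activates AKT, fell with CDTX by 1.81 in SCI mice and 1.25 in sham mice, the latter -0.45 and not called under median scaling. Grb10, an imprinted adaptor that restrains both receptors, rose by 0.88 and 0.94 with CDTX in SCI and sham mice, the latter 0.78 and not called with the score. Grb14, its relative, fell with SCI in saline muscle by 1.39 (adjusted p = 2.1e-06).

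The last list held genes linked to Igf2, by imprinting or by binding its mRNA, of which 5 of 7 were kept. With CDTX 3 were higher and 0 lower in each surgery (2 and 0 in sham mice with the score), and with SCI 0 and 2 in CDTX muscle (0 and 1 with the score) and 0 and 1 in saline muscle (1 and 0 under median scaling, 0 and 0 with the score), against the same backgrounds. Its median was 0.80 with CDTX in SCI mice and 0.52 in sham mice, beside -0.04 and -0.05 over all genes tested. H19, the imprinted RNA beside Igf2, fell with SCI in CDTX muscle by 1.14 (adjusted p = 0.00061; -0.70 with the score, not called). In saline muscle, where Igf2 differed by -1.48, it fell by 0.55, a call lost with all 16 arrays, under median scaling and with the score. The imprinted gene Mest rose with CDTX by 1.35 and 1.58.

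**Figure D5:**
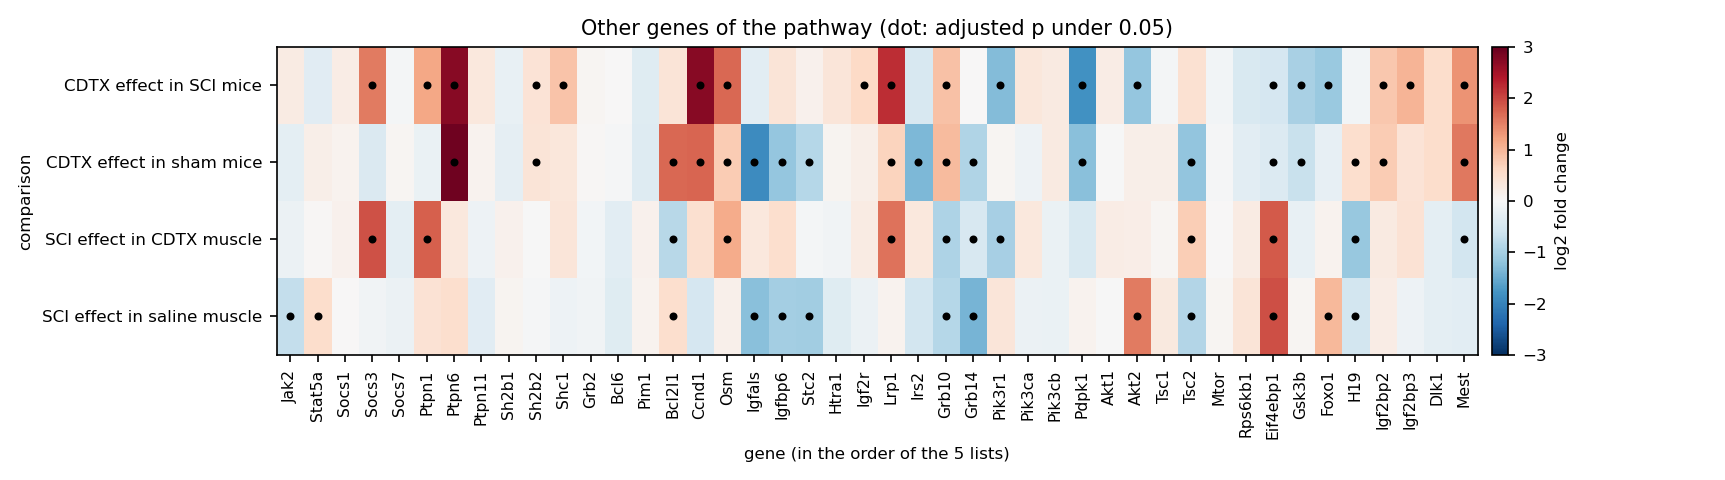
Log2 fold change (colour) of 44 genes of the 5 pathway lists, shown once each in list order, in 4 comparisons; a dot marks an adjusted p under 0.05. Ptpn6, Ccnd1 and Mest are red in both CDTX rows, Eif4ebp1 in both SCI rows, and Socs3 in the rows CDTX in SCI mice and SCI in CDTX muscle.

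As a description of pattern, the genes whose log2 levels correlated best with each of 3 members over the 15 arrays were listed, with arrays that share group differences. For Cish they were Iqcb1, Ccdc117, Spast and Golga1 (each r = 0.93) and Chd1l (0.92). For Socs2 they were Peg3 and Rbsn (each 0.91), a probe whose symbol is damaged in the table (ILMN_2776710, 0.89), Arhgef6 and Srebf1 (each 0.88). For Igf1 they were Vamp8 (0.90), Pdlim2, Agpat4 and Myl6 (each 0.89) and Atpif1 (0.88). Among the members, Cish and Socs2 correlated at -0.13, and Cish correlated at 0.82 with Ghr ILMN_3138922 and 0.28 with Ghr ILMN_1253504.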

How the data were processed

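Total RNA from hamstring muscle was hybridised to Illumina expression BeadChips, 16 arrays in 4 groups of 4. The authors deposited raw mean bead intensity per probe and array, exported with GenomeStudio 2011.1 per the submitters' processing notes (GSGX 1.9.0 per the file headers), without normalisation or background subtraction. Detection p-values against negative controls were deposited beside it, per the file headers. A second deposited table holds group mean intensity after average normalisation and background subtraction by the authors, with difference p-values against SCI+CDTX. The genome build of the probe annotation is not given in the sources used here, so members are placed by chromosome and band.

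Computed from these were normexp background correction with detection p-values (offset 16), quantile normalisation and log2 in limma 3.58.1 under R 4.3.3, on 15 arrays. The filter required detection (p under 0.05) on 3 or more arrays, which left 14763 probes of 10952 genes. A linear model of the 4 group means was run over this whole set with empirical Bayes moderation and Benjamini-Hochberg adjustment per contrast, and a probe was called at an adjusted p under 0.05. Each array gives 1 value per probe, and the number of arrays limits the precision. Two-sided limma tests gave all p-values of this work. In a check on simulated data for CDTX in sham mice, with 200 of 14763 probes changed by 1 log2 unit, 169 (84.5%) were recovered with 9 false calls. The simulated noise was independent for each probe, with no pattern shared across an array. The real comparison had 48.9% of probes called and the probe-difference pattern, so these rates do not carry over to it.

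Alternatives were all 16 arrays, array weights, median scaling, no background correction, slides normalised separately, 2 other detection filters, trended and robust moderation, fits on the compared groups alone, a replicate block, the probe-difference score as a covariate, the authors' deposited group means, and each array left out in turn. The members and all gene lists were chosen with earlier results of these data known. Every member probe is described. From each pathway list the 2 highest and 2 lowest called log2 fold changes per comparison could be named, on the brightest kept probe of a gene, and the 5 genes most correlated with each of Cish, Socs2 and Igf1. The values of 1 gene that this rule would name are not reported here. Symbols were updated through RefSeq gene identifiers for 23681 probes, of which 4172 changed. Promoter sequences came from RefSeq on GRCm38.p6.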

Additional observations from a re-analysis of the deposited data

Results flagged for a closer look

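Of 39 groups of 4 arrays over the 13 tested probes, 2 held an array that stood far from the others, where chance gives about 1 in 20. Igfbp4 ILMN_2694955 read 9.23 on SCI+Saline 4, and the nearest of the other SCI+Saline arrays read 7.98. Igfbp7 ILMN_2764588 read 12.34 on Sham+CDTX 3 against 12.23 on the nearest array, in a group with a narrow spread.

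By the interaction term, the CDTX effect differed between SCI and sham mice for 3 of 13 member probes. This is near the share called over all 14763 tested probes, 23.6%. The 3 were Igf2 at 1.34, Igfbp4 ILMN_1258988 at 1.40 and Igfbp7 ILMN_2764588 at 1.25. Of the pathway genes, only the 2 highest and 2 lowest called interactions per list could be named, and some lists held more. Among those reported, the CDTX effect differed for Socs3 (2.01), Ptpn1 (1.36), Igfals (1.57), Bcl2l1 (-1.33), Igfbp6 (1.54), Tsc2 (1.62), Grb14 (0.91) and Pik3r1 (-1.35). None of these 11 interactions was called by limma once the probe-difference score was a covariate, in which fit 0 of the 13 member probes were called and 3 had an unadjusted p under 0.05. The score nearly coincides with the Sham+CDTX group, apart from SCI+CDTX 2. A call lost in that fit therefore does not show that an interaction is absent.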

How the results depend on the processing

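Of 1020 values of single member probes under other processing, 901 kept their direction and side of the threshold, 85 lost the call, 22 gained it and 12 reversed. With 1 array left out 1283 of 1365 such values kept both, 63 lost the call, 19 gained it and 0 reversed. Pathway genes, which are not in these counts, were recomputed with all 16 arrays, under median scaling and with the score. Reversed with the score as a covariate were Ghr ILMN_1253504 for SCI+Saline minus Sham+CDTX (0.27), Igf2 for CDTX in sham mice (1.62) and the interaction (-0.73), Igfbp4 ILMN_1258988 for SCI in CDTX muscle (-0.45) and the interaction (-0.034), and Igfbp7 for CDTX in sham mice (1.15) and SCI+Saline minus Sham+CDTX (-0.98). Ghr ILMN_3138922 reversed under median scaling for CDTX in sham mice (0.15), SCI in saline muscle (0.44) and SCI+CDTX minus Sham+Saline (0.32), and in the authors' deposited means for CDTX in SCI mice (0.0073) and SCI+CDTX minus Sham+Saline (0.13).

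Counts of called member probes moved by over 1.5 times in few settings. With all 16 arrays they were 4 for CDTX in sham mice, 3 for SCI in CDTX muscle and 1 for the interaction. With the score they were 1 for SCI in CDTX muscle, 7 for SCI+Saline minus Sham+CDTX and 0 for the interaction (limma, 3 at an unadjusted p under 0.05). The count for SCI in saline muscle was 3 with array weights, with slides normalised separately, without the detection filter and with only the compared groups. Slides normalised separately gave 7 for SCI+Saline minus Sham+CDTX, and median scaling 1 for the interaction. With 1 array left out the counts ranged from 4 to 7 and 5 to 7 for CDTX in SCI and sham mice, 4 to 6 and 3 to 6 for SCI in CDTX and saline muscle, 5 to 11 and 9 to 11 for the 2 diagonal comparisons and 2 to 5 for the interaction. The 3 came without SCI+Saline 2, SCI+Saline 3 or Sham+Saline 3, the 5 of 11 without SCI+CDTX 3, and the interaction's 5 without Sham+Saline 1. The cause was not tested.

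Replicate numbers were not used to pair arrays: of 21 same-number pairs, 3 had a correlation of deviations above 0.1 (-0.27 to 0.38), and 3 of 15 arrays correlated best with their own number. With a replicate block, 6, 6, 10 and 11 member probes were called in the comparisons where 6, 7, 10 and 11 were called without it, in the order CDTX in SCI mice, CDTX in sham mice, SCI+CDTX minus Sham+Saline and SCI+Saline minus Sham+CDTX. The Cish difference with CDTX in SCI mice was then -1.43 and called. Probes near background, such as Igf1r and Igf1 ILMN_2647594, and the number of arrays limit what could be detected.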
